A study of Homo sapiens with 6 samples.

Results

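The let-7 family is a group of miRNAs that share a seed, the bases near the 5′ end that pair with target mRNAs. The 9 members described here are the 5p arms hsa-let-7a-5p, hsa-let-7b-5p, hsa-let-7c-5p, hsa-let-7d-5p, hsa-let-7e-5p, hsa-let-7f-5p, hsa-let-7g-5p, hsa-let-7i-5p and hsa-miR-98-5p (the species prefix is left out below), chosen by name among 2555 human miRNA probes of a microRNA array. They were measured in HuCCT1 cells, an established human cell line from cholangiocarcinoma (CCA), the cancer of the bile duct epithelium. A control group received 0 ng/ml TGF-β and the other group 10 ng/ml TGF-β, both for 72 h, with 3 arrays each of 1 RNA sample per array. The labels give no deletion, transgene or other agent in either group, and the model is this single cell line. TGF-β induces epithelial-mesenchymal transition (EMT) in such cells, and the arrays compare miRNAs with and without it.

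Mature let-7 is abundant in differentiated epithelial cells and low in stem cells, where the RNA-binding protein LIN28 blocks the maturation of its precursors. Its known targets include mRNAs of the RAS and MYC families and that of HMGA2, a chromatin protein that takes part in TGF-β-induced EMT. Through these targets the family is known as a brake on growth and on the mesenchymal state in carcinomas.

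The mature sequences of all 9 members were found in RefSeq (GRCh38.p14) and are shown 5′ to 3′, with the seed (bases 2 to 8) in capitals, since the family is defined by the capitals and its members are told apart only by the other letters.
let-7a-5p: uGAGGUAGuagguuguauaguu
let-7b-5p: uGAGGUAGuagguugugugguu
let-7c-5p: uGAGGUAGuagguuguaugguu
let-7d-5p: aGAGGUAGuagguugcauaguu
let-7e-5p: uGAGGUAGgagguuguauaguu
let-7f-5p: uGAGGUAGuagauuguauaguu
let-7g-5p: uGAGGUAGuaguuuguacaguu
let-7i-5p: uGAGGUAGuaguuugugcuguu
miR-98-5p: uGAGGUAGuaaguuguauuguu

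Each mature miRNA is 22 bases long, and all 9 carry the same seed. Counted from the 5′ end and with the let-7a-5p base given first, let-7c-5p differs from let-7a-5p by A19G alone. Let-7b-5p differs by A17G and A19G, and let-7d-5p by U1A and U16C. These 3 members therefore keep every base of let-7a-5p from position 9 to position 12. The other 5 members each have a difference inside those positions. It is U9G in let-7e-5p, G12A in let-7f-5p, G12U in let-7g-5p and let-7i-5p, and G11A in miR-98-5p. Let-7g-5p also has U18C, let-7i-5p also has A17G, U18C and A19U, and miR-98-5p also has A19U.

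The 9 mature miRNAs come from 12 loci (GRCh38.p14, mature coordinates), which are described by the gene spans that hold them, since exons and introns were not resolved here. The cluster on chromosome 9 holds let-7a-5p (chr9:94175962-94175983), let-7f-5p (chr9:94176353-94176374) and let-7d-5p (chr9:94178841-94178862) inside the lncRNA gene MIRLET7A1HG. Let-7a-5p has further copies at chr11:122146568-122146589, inside MIR100HG, and at chr22:46112752-46112773, inside MIRLET7BHG, which also holds let-7b-5p (chr22:46113691-46113712). Let-7c-5p lies at chr21:16539838-16539859 inside MIR99AHG, and let-7e-5p at chr19:51692793-51692814 inside the span of SPACA6. Let-7g-5p lies at chr3:52268336-52268357 inside WDR82, and let-7i-5p at chr12:62603691-62603712 inside MIRLET7IHG. MiR-98-5p (chrX:53556299-53556320) and the other copy of let-7f-5p (chrX:53557246-53557267) both lie inside HUWE1. Because let-7a-5p comes from 3 loci and let-7f-5p from 2, their signals cannot be assigned to a locus.

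The scanner output gives the median brightness of each spot. A probe was detected when its brightness exceeded the mean of the 229 blank spots of the array by more than 2 SD of those spots, which held for 327 to 464 human probes per array. That mean was subtracted from every spot. A common factor per array then brought the 292 probes with detection on every array to a median of 25, and the result is called the normalized signal. A miRNA detected on all 3 arrays of a group was counted as expressed, and there were 323. The chip of each array was inferred from the naming of the scanner output, since the sample labels do not give it. By that naming the 3 control arrays and TGF-β array 1 shared chip 1, while TGF-β arrays 2 and 3 were on chip 2. Chip and treatment therefore overlap in part. Of the miRNAs listed for epithelial cells, those of the miR-200 family were each detected on at least 5 arrays. MiR-21-5p, also listed but not particular to epithelial cells, was detected on all 6. The hepatocyte marker miR-122-5p, the muscle markers miR-133a-3p and miR-206 and the stromal markers miR-143-3p and miR-145-5p were not detected on any array, and of the 3 blood markers only miR-223-3p was, on 1 array. Each array holds the RNA of many cells, so fewer cells with a miRNA and less of it per cell cannot be told apart.

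All 9 members were detected on all 6 arrays, and no spot of theirs was flagged. The dimmest, miR-98-5p, exceeded the blank mean by 6.85 to 17.1 blank-spot SD, and the other 8 exceeded it by 18.7 to 243 SD. Brightness differs between probes for reasons other than abundance, so signals were compared only within a probe and the members were not ranked by level. After TGF-β, let-7a-5p and let-7d-5p had the highest ratios of the family, at 1.53 and 1.54, while let-7f-5p, let-7g-5p, let-7i-5p and miR-98-5p lay between 0.963 and 1.04. No member passed the adjusted p of 0.05 in limma (0 of 9). Over all 323 expressed miRNAs the same test called 0 (0%, smallest adjusted p = 0.425). At an unadjusted p under 0.05 limma gave 0 members and 21 expressed miRNAs (6.5%). That count of members was 1 with the replicate number as a block (31 miRNAs), 2 with a trended and robust variance (22 miRNAs) and 2 without TGF-β array 1 (30 miRNAs), none of them past the adjusted p. Over the settings tried, the count of miRNAs went from 7, with each array scaled by its own detected probes, to 41, without TGF-β array 3. The methods' t-test called 0 members and 1 of 322 miRNAs after Benjamini-Hochberg adjustment.

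**Figure D1:**
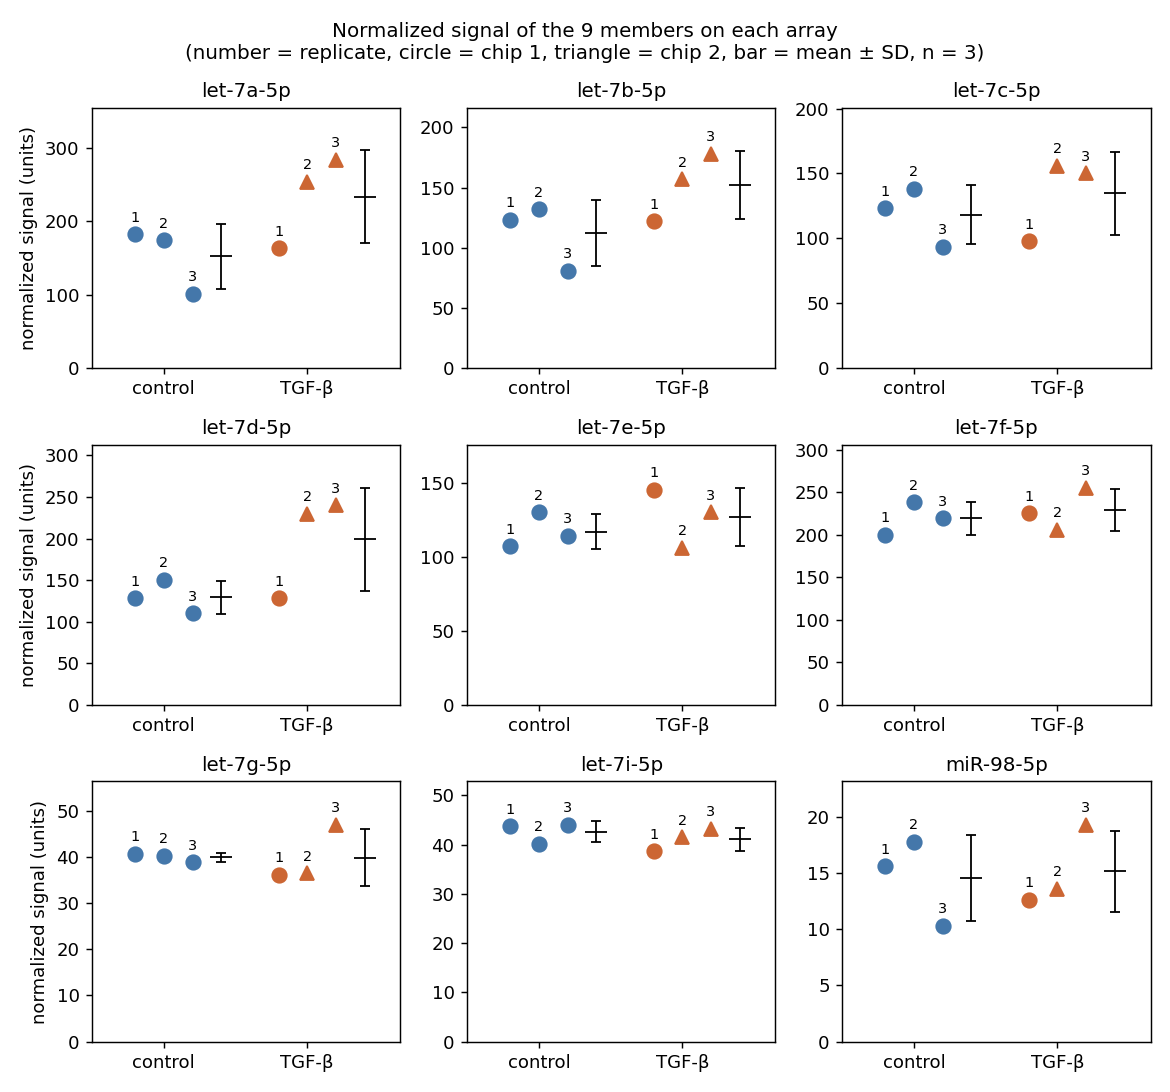
Normalized signal (y axis, linear, from 0) of each member on the control and TGF-β arrays. Numbers are replicates, circles are arrays of chip 1, triangles are arrays of chip 2, and the bar is the mean ± SD (n = 3). TGF-β arrays 2 and 3 sit above all other arrays for let-7a-5p, let-7b-5p, let-7c-5p and let-7d-5p, and TGF-β array 1 sits among the controls for these 4.

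Let-7a-5p had normalized signals of 182, 174 and 101 in controls 1, 2 and 3 and of 163, 254 and 284 after TGF-β (arrays 1, 2 and 3). TGF-β arrays 2 and 3 were above every control array, while TGF-β array 1 was below control arrays 1 and 2, so the groups overlapped. The means were 153 ± 44.5 (SD, n = 3) and 233 ± 63.1 (SD, n = 3), and the log2 change was 0.62 (standard error 0.30, 95% confidence interval -0.08 to 1.32, limma adjusted p = 0.724). By a 2-sided exact permutation test of the 6 arrays p was 0.3, and a design of 3 arrays per group cannot give a p below 0.1.

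Let-7d-5p, which shares the chromosome 9 cluster with let-7a-5p, had signals of 128, 150 and 110 in the controls and of 128, 230 and 240 after TGF-β. The picture was that of let-7a-5p, with TGF-β array 1 inside the range of the controls and the other 2 above it. The means were 129 ± 19.7 (SD, n = 3) and 199 ± 62.0 (SD, n = 3), and the log2 change was 0.58 (standard error 0.28, 95% confidence interval -0.06 to 1.22, limma adjusted p = 0.724). The exact permutation test gave p = 0.3.

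Let-7b-5p had signals of 123, 132 and 80.5 in the controls and of 122, 157 and 178 after TGF-β. Control array 3 was the lowest of the 6, as it was for let-7a-5p, and TGF-β array 1 lay just under control array 1. The log2 change was 0.46 (95% confidence interval -0.12 to 1.04, limma adjusted p = 0.813), with means of 112 ± 27.5 and 152 ± 28.5 (SD, n = 3 each) and a ratio of 1.36.

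Let-7c-5p, which has the fewest differences from let-7a-5p of these 3, had signals of 123, 138 and 93.5 in the controls and of 97.5, 156 and 150 after TGF-β. TGF-β array 1 was here the lowest but for control array 3, and TGF-β arrays 2 and 3 were again the highest. The log2 change was 0.18 (95% confidence interval -0.40 to 0.76, limma adjusted p = 0.992), and the ratio of means was 1.14.

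The remaining 5 members showed no such step on TGF-β arrays 2 and 3. Let-7f-5p, from the same chromosome 9 cluster as let-7a-5p and let-7d-5p, had signals of 200, 238 and 219 in the controls and of 225, 206 and 255 after TGF-β. The groups were interleaved, and the log2 change was 0.06 (95% confidence interval -0.36 to 0.48, limma adjusted p = 0.992). Let-7e-5p had 107, 130 and 114 in the controls and 145, 106 and 130 after TGF-β. Its highest value was on TGF-β array 1 and its lowest on TGF-β array 2, with a log2 change of 0.12 (95% confidence interval -0.34 to 0.57, limma adjusted p = 0.992).

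Let-7g-5p had signals of 40.7, 40.2 and 38.8 in the controls and of 36.1, 36.4 and 46.9 after TGF-β. Only TGF-β array 3 was above the controls, and the other 2 were below them. The log2 change was -0.02 (95% confidence interval -0.45 to 0.42, limma adjusted p = 0.992). Let-7i-5p, from its own locus on chromosome 12, had 43.7, 40.2 and 44.0 in the controls and 38.6, 41.5 and 43.2 after TGF-β. The SD of its log2 signals was 0.07 among controls and 0.08 among TGF-β arrays, and its log2 change was -0.05 (95% confidence interval -0.45 to 0.34, limma adjusted p = 0.992). MiR-98-5p had 15.6, 17.8 and 10.3 in the controls and 12.6, 13.6 and 19.3 after TGF-β, a log2 change of 0.07 (95% confidence interval -0.55 to 0.69, limma adjusted p = 0.992). Its lowest value was on control array 3, like those of let-7a-5p to let-7d-5p, but TGF-β array 2 was below control arrays 1 and 2.

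**Figure D2:**
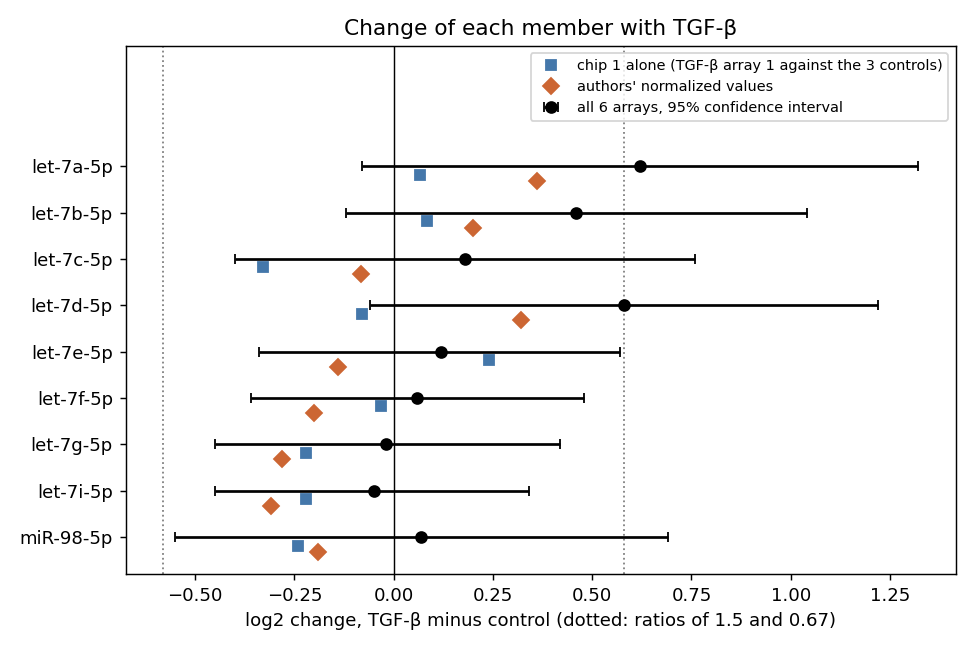
Log2 change (x axis, TGF-β minus control) of each member (y axis), with the 95% confidence interval of limma over all 6 arrays (black). Blue squares use the 4 arrays of chip 1 alone, orange diamonds the authors' normalized values, and dotted lines mark ratios of 1.5 and 0.67. Every interval spans 0, and those of let-7e-5p, let-7f-5p, let-7g-5p and let-7i-5p end inside both dotted lines.

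The study's thresholds for a changed miRNA were ratios of 1.5 and 0.67, which are 0.58 and -0.58 on the log2 scale. Of the 9 members, 2 (let-7a-5p and let-7d-5p) had a ratio above 1.5, against 4.64% of all expressed miRNAs, and 0 had one below 0.67, against 2.79%. These 2 ratios lay just above 1.5, and the count was 0 without control array 3, without TGF-β array 2 or without TGF-β array 3. In 0 of the 9 members were the 3 TGF-β arrays all above or all below the 3 controls, against 9.91% of expressed miRNAs (7.12% with all above and 2.79% with all below). The intervals of let-7e-5p, let-7f-5p, let-7g-5p and let-7i-5p lay between -0.58 and 0.58, so a change past either threshold was outside them. Those of let-7a-5p, let-7b-5p, let-7c-5p, let-7d-5p and miR-98-5p reached above 0.58. The median log2 change of the members was 0.12 and that of all expressed miRNAs 0.01, while 7 of 9 members and 51.1% of expressed miRNAs had a log2 change above 0.

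The higher signals of let-7a-5p to let-7d-5p followed the chip. For these 4 members both arrays of chip 2 were above all 4 arrays of chip 1, which held for 10.2% of expressed miRNAs (33 of 323). Chip 2 held no control array, so on it chip and treatment cannot be told apart. Relative to the mean of the controls, the log2 signal of let-7a-5p was higher by 0.78 and 0.94 on TGF-β arrays 2 and 3 and by 0.14 on TGF-β array 1. For let-7d-5p these differences were 0.84, 0.90 and -0.01, for let-7b-5p 0.52, 0.71 and 0.15, and for let-7c-5p 0.42, 0.37 and -0.26. When the comparison was made within chip 1 alone, with TGF-β array 1 against the 3 controls and all 4 arrays scaled anew, the log2 change was 0.067 for let-7a-5p, 0.083 for let-7b-5p, -0.33 for let-7c-5p and -0.079 for let-7d-5p (limma adjusted p between 0.751 and 0.953 for these 4). With the chip as a block in the fit of all arrays it was 0.14, 0.15, -0.26 and -0.0065. Both settings rest on TGF-β array 1, which is assumed to vary as the controls do. The part of the chip in the result was not tested.

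**Figure D3:**
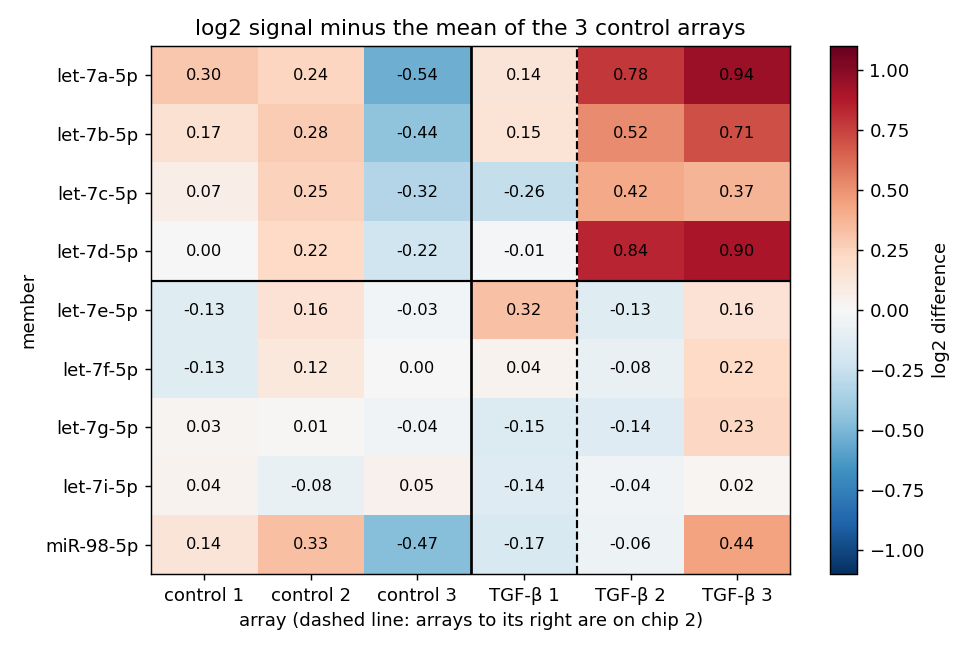
Log2 normalized signal of each member (rows) on each array (columns) minus the mean of the 3 control arrays, in colour and as numbers. The solid vertical line separates controls from TGF-β arrays, arrays right of the dashed line are on chip 2, and the horizontal line separates the 4 members with the bases of let-7a-5p at positions 9 to 12 from the other 5. The upper rows are highest on TGF-β 2 and 3, at 0.37 to 0.94, and lowest on control 3, at -0.54 to -0.22.

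The split between the 4 members that were high on chip 2 and the other 5 was noticed in the values and is given as a description. It coincided with the sequences shown above, since let-7a-5p, let-7b-5p, let-7c-5p and let-7d-5p keep the same bases at positions 9 to 12 and the other 5 each differ from them there. Profiles were compared by the root mean square difference of the log2 signals over the 6 arrays, each miRNA centred on its own mean. It was 0.14 to 0.27 for the 6 pairs among these 4 members, 0.11 to 0.32 for the 10 pairs among the other 5, and 0.21 to 0.51 for the 20 pairs with 1 member of each group. The groups were seen in these same signals, so smaller differences within a group follow in part from that choice. A link of the bases at positions 9 to 12 with the profiles was not tested. The number of differing letters alone did not order the pairs. The pair of let-7a-5p and let-7e-5p, with 1 differing letter (U9G), had the largest difference of all 36 pairs at 0.51. The pair of let-7a-5p and let-7f-5p, also with 1 (G12A), had 0.47, and the pair of let-7a-5p and let-7c-5p, with A19G, had 0.27. The mature members are nearly alike, and how far each probe binds the other members was not tested.

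The place of the spots on the array was also set beside the profiles. Let-7a-5p and let-7b-5p were printed side by side, as were let-7c-5p and let-7d-5p, and let-7e-5p and let-7f-5p. These 3 pairs differed by 0.14, 0.22 and 0.11. Over 47 pairs of other miRNAs printed side by side the median difference was 0.26, against 0.39 over all 39903 pairs of other miRNAs detected on all arrays. Let-7g-5p differed by 0.11 from both let-7f-5p and let-7i-5p, which lie in other blocks of spots. How far apart the blocks lie was not resolved. Within their blocks all members were printed in row 1, in column 9 or 10 except miR-98-5p in column 6. Let-7a-5p and let-7d-5p, also in different blocks, differed by 0.19. MiR-98-5p shares a block with let-7a-5p and let-7b-5p, and it differed from let-7a-5p by 0.33 and from let-7b-5p by 0.22. The local background beside the spots was high around several members. It exceeded the brightness of the spot itself in 31 of 54 member values, against 16.5% of the values of probes detected on all arrays. This excess was seen on every array for let-7a-5p and let-7d-5p and on most arrays for let-7b-5p and let-7c-5p. It was less frequent in the other members and absent for let-7g-5p, so it was most frequent in the members that were high on chip 2. The part of spot position and of local background in the profiles was not tested.

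**Figure D4:**
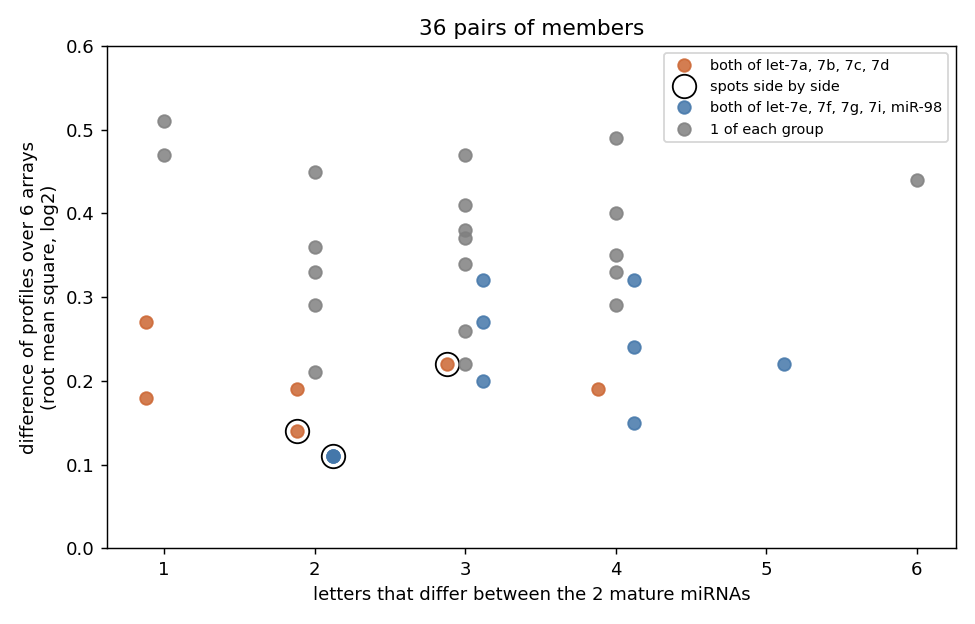
Root mean square difference of log2 profiles over the 6 arrays (y axis) against the number of letters that differ between the mature miRNAs (x axis) for the 36 pairs of members. Orange points are pairs within let-7a, let-7b, let-7c and let-7d, blue points pairs within the other 5, grey points pairs across, and black rings mark spots printed side by side. Orange points lie at or below 0.27, grey points reach 0.51 at 1 letter, and 3 blue points coincide at 2 letters and 0.11.

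The values that the authors normalized gave another level for the same probes. The number of miRNAs with a value in them differed between arrays, from 346 on TGF-β array 1 to 507 on control array 1. The part of this in the level was not tested. In these values let-7a-5p read 479.4, 253.3 and 184.0 in the controls and 217.5, 562.3 and 388.2 after TGF-β. Control array 1 was then above TGF-β array 3, and the ratio of the means, 389 ± 172 over 306 ± 154 (SD, n = 3 each), was 1.27 (exact permutation test on the log2 values, p = 0.6). Let-7d-5p had a ratio of 1.34 and let-7b-5p one of 1.14. The other 6 members had ratios between 0.799 for let-7i-5p and 0.983 for let-7c-5p. No member was past 1.5 or 0.67 in them. The log2 change of all expressed miRNAs had a median of -0.27 in these values, and 7 of the 9 members lay above that median, as 7 lay above the median of 0.01 in the scaling used here. With the chip as a block and on chip 1 alone, 3 of the 9 lay above the median of all expressed miRNAs.

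The miRNAs closest to the family in profile were sought among 283 non-member miRNAs detected on all 6 arrays, by their root mean square difference from the average centred log2 signal of the 9 members. The 5 nearest were miR-25-3p (0.09), miR-130a-3p (0.11), miR-24-3p (0.11), miR-6515-3p (0.12) and miR-4488 (0.12), against a median of 0.33. All 5 share the arrays and the scaling with the members. MiR-24-3p had signals of 156, 163 and 104 in the controls and of 145, 182 and 200 after TGF-β, with control array 3 lowest as in let-7a-5p. The members themselves lay 0.14 to 0.29 from their own average, below that median of 0.33. Each member is part of that average, so its distance is smaller in part by construction. The 5 were picked as the nearest of 283, so their smaller distances follow in part from that choice.

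The other arms of the let-7 precursors, which are usually degraded when the 5p arm is loaded into the silencing complex, were not detected. None of the 11 listed 3p arms passed detection on any of the 6 arrays, and none reached the mean of the blank spots (the highest was let-7f-2-3p, at -0.181 SD). The RefSeq table holds 2 other human miRNAs with the same seed, miR-4458 and miR-4500, and neither was detected on any array. MiR-202-3p, whose start resembles the seed, was not detected either.

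The miRNAs made from the same genomic clusters were detected for 6 of 7 listed, and none of the 6 passed the adjusted p in limma. Their median log2 change was 0.38, with all 6 changes above 0, against 51.1% of expressed miRNAs. In the authors' values 4 of the 6 were above 0, against 16.9% of all, and miR-4763-3p and miR-99b-5p were below it. With each array scaled by its own detected probes it was again 4 (20.4% of all). It was also 4 with normexp background, with the chip as a block and on chip 1 alone, where miR-99a-5p and miR-100-5p were below 0 in both chip settings, and 5 without control array 3. Beside let-7c-5p on chromosome 21, miR-99a-5p (716 bases away) had 77.8, 82.2 and 54.3 in the controls and 69.1, 104 and 122 after TGF-β. MiR-100-5p, 5686 bases from the let-7a-5p copy on chromosome 11, had 109, 121 and 84.3 in the controls and 77.5, 170 and 196 after TGF-β. In both, TGF-β arrays 2 and 3 were the highest and TGF-β array 1 was not, as for let-7a-5p. MiR-125b-5p, which comes from the chromosome 11 and the chromosome 21 cluster, did not follow that order.

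It had 123, 143 and 142 in the controls and 185, 179 and 179 after TGF-β, so that all 3 TGF-β arrays were above all controls (log2 change 0.41, 95% confidence interval 0.01 to 0.81, limma adjusted p = 0.693). In the cluster of let-7e-5p, miR-125a-5p had 29.6, 35.6 and 30.0 against 45.8, 35.1 and 41.2, and miR-99b-5p 15.5, 15.4 and 14.2 against 19.3, 17.2 and 15.4. Both were highest on TGF-β array 1, as was let-7e-5p itself, with log2 changes of 0.36 and 0.20 (limma adjusted p = 0.813 and 0.992). Beside let-7b-5p, miR-4763-3p had a log2 change of 0.15 (limma adjusted p = 0.992), and miR-4763-5p was not detected.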

How the data were processed

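The authors deposited the scanner intensity of each spot (median brightness with a local background, not normalized, from the 3D-Gene Extraction software) and their normalized intensity values, set to a median of 25 per array. The rule for values left empty is not given in the sources used here. The blank-spot mean was subtracted, arrays were scaled to a median of 25 over common probes, a floor at each array's dimmest detected signal was applied, and log2 was taken. The 4 human probes with a failed spot flag on 1 array were missing there; none was a member. Groups came from the sample labels. Nothing says that replicates were separate cultures, so p-values measure the spread between these samples.

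The ratio is the arithmetic mean of TGF-β arrays over that of control arrays. Groups were compared with limma 3.58.1 (lmFit, eBayes, Benjamini-Hochberg over 323 miRNAs) in R 4.3.3. The members and lists were chosen with earlier results of these data known. All 9 members are named, the listed arms, cluster neighbours and seed relatives by count, and the 5 nearest profiles. Deviations from group means of arrays with the same replicate number correlated by 0.12, 0.24 and 0.33 (322 miRNAs). What this number marks is not given by the labels, so pairing was not established. The main fit treated the arrays as unpaired, and the replicate block was only one of the other settings. In simulated data of 322 miRNAs, 67.2% of 60 miRNAs changed by 2-fold and 1.53% of those changed by 1.5-fold were called. False calls per run averaged 2 at 2-fold and 0.12 at 1.5-fold. The simulated noise was independent between arrays and held no difference between chips, unlike the arrays here.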

Additional observations from a re-analysis of the deposited data

How the results depend on the processing

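No member passed the adjusted p in limma or the methods' t-test in any of 21 other settings. Over all miRNAs the count was 0 to 1 with arrays left out (1 without TGF-β array 3) and 1 by the t-test. With the replicate block it was 0, with an adjusted p of 0.491 for let-7a-5p, and the block changed no call at the adjusted p. At an unadjusted p under 0.05 it moved the members from 0 to 1 and all miRNAs from 21 to 31. The number of members above a ratio of 1.5 was 2. Scaling by quantiles, by centred ratios, by the 75th percentile or by the probes detected on the array itself, normexp correction, the values of the authors and chip 1 alone each gave 0. Leaving out 1 array gave 0 to 3. None was below 0.67 in any scaling, filter, left-out array or chip 1 setting for which ratios were computed. The median log2 change of the members was 0.12 and became -0.14 in the authors' values, where the median of all miRNAs was -0.27. Leaving out TGF-β array 3 gave 0.037 and leaving out control array 2 gave 0.26, the lowest and highest of such values.

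Let-7b-5p stayed above 0 and let-7i-5p below 0 in all 21 settings. Some of these could not turn a sign, since they leave the log2 changes of the members as in the main fit. They are the trended variance, the t-test, the replicate block, the detection filters and the setting without a floor. Signs turned for others, and the cause was not tested. In the authors' values let-7c-5p was -0.082, let-7e-5p -0.14, let-7f-5p -0.20 and miR-98-5p -0.19. Scaled by the probes detected on the array itself they were -0.038, -0.099, -0.16 and -0.14, where the median of all was -0.20. With the 75th percentile let-7f-5p was -0.054 and miR-98-5p -0.043, and with quantile normalization let-7f-5p was -0.065. With normexp, which uses the local background, let-7a-5p was -0.12. The local background exceeded the spot on every array for let-7a-5p and let-7d-5p, so their normexp values rest on spots with no excess over it. With the chip as a block let-7c-5p was -0.26, let-7d-5p -0.0065 and miR-98-5p -0.17. On chip 1 let-7c-5p was -0.33, let-7d-5p -0.079, let-7f-5p -0.031 and miR-98-5p -0.24. With arrays left out let-7f-5p ranged from -0.066 to 0.14, let-7g-5p from -0.19 to 0.044 and miR-98-5p from -0.16 to 0.26. With 3 arrays a group, 1.53% of changes of 1.5-fold were called in the simulation, which held no difference between chips.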
